A study of Mus musculus with 10 samples.

Results

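The receptor subunits through which retinal neurons receive glutamate, GABA and glycine were described in the retina of mice with oxygen-induced retinopathy (OIR). Members were chosen by gene symbol: the AMPA (Gria), kainate (Grik), NMDA (Grin), delta (Grid) and metabotropic glutamate (Grm) receptor genes, the GABA-A, GABA-A rho and GABA-B receptor genes (Gabr and Gabbr) and the glycine receptor genes (Glra and Glrb). A transcript cluster, the array's set of probes for 1 gene, stood for each symbol. Of 30063 genes with such a cluster, 44 were members, and 41 of these were among the 23255 genes with enough signal to be tested. Gabra6, Gabrp and Gabrq lay below the 30th percentile of their array's values on all 10 arrays and were not tested. Other subunits of these families were not analysed here.

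In the retina, photoreceptors and bipolar cells release glutamate, and horizontal and amacrine cells release GABA or glycine. AMPA, kainate and NMDA receptors are cation channels opened by glutamate, while GABA-A, GABA-A rho and glycine receptors are chloride channels, each built from 5 subunits whose mixture sets the speed and sensitivity of the channel. Metabotropic glutamate receptors and GABA-B receptors act through G proteins. The inner retina forms most of its synapses in the weeks after birth, and mice open their eyes between the ages sampled here.

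Total RNA of whole retina from C57BL/6JJmsSlc mice was measured on 10 biotin-labelled whole-transcript arrays, 2 in each of 5 groups. In the OIR groups, pups were kept in 75% oxygen from postnatal day 7 for 5 days and then returned to air, which leaves the retina short of vessels. The day 17 groups were OIR injected into the vitreous with the inhibitor ISOX DUAL, OIR injected with phosphate-buffered saline (PBS), OIR without an injection, and untreated retina. An untreated day 7 group gave the age at which the oxygen exposure began. ISOX DUAL is known as an inhibitor of bromodomains, the protein modules that read acetylated histones. Its dose, the sex of the mice and whether an array held 1 animal or a pool are not given in the labels, so p-values measure the spread between arrays, which may be technical.

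Values are log2 units as deposited. Between 8.00% and 9.97% of clusters on an array exceeded the 95th percentile of that array's negative control probes. Among the 44 members, 31 exceeded the negative control median on all 10 arrays, and 14 exceeded the 95th percentile on at least 1 array; Gria2 and Gria4 did so on all 10. Rod and bipolar cell markers were present on every array, with mean log2 levels of 11.31 and 11.50 for 4 rod genes and 9.19 and 9.18 for 6 bipolar genes on the untreated day 17 arrays. The second ISOX DUAL array stood apart in 9 lens genes, whose mean log2 level was 8.68 there and 6.74 on the first ISOX DUAL array, against 6.27 and 6.62 on the PBS arrays and 5.86 to 6.25 on the other 6. Since whole retina was measured, fewer cells of a type and less RNA per cell cannot be told apart.

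Untreated retina at day 17 was first set against untreated retina at day 7. The rho subunits Gabrr2 and Gabrr1, the glycine receptor alpha subunits Glra1, Glra3 and Glra4 and the glutamate receptor Grm5 had the largest rises, from 1.58 to 3.04 on the log2 scale (n = 2 arrays per group). The kainate receptor subunit Grik3 had the largest fall (-1.69). In all, 18 of the 41 members passed the threshold of an adjusted p of 0.05 (limma, Benjamini-Hochberg over the 23255 genes), which is 43.9% of members where 10.6% of all genes passed. Of the members 14 were higher at day 17, beside 5.26% of all genes, and 4 were lower, beside 5.29%. The median log2 difference was 0.22 over the members and 0.01 over all genes; the members' median was 0.37 without the second day 17 array and 0.47 without the first day 7 array.

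**Figure D1:**
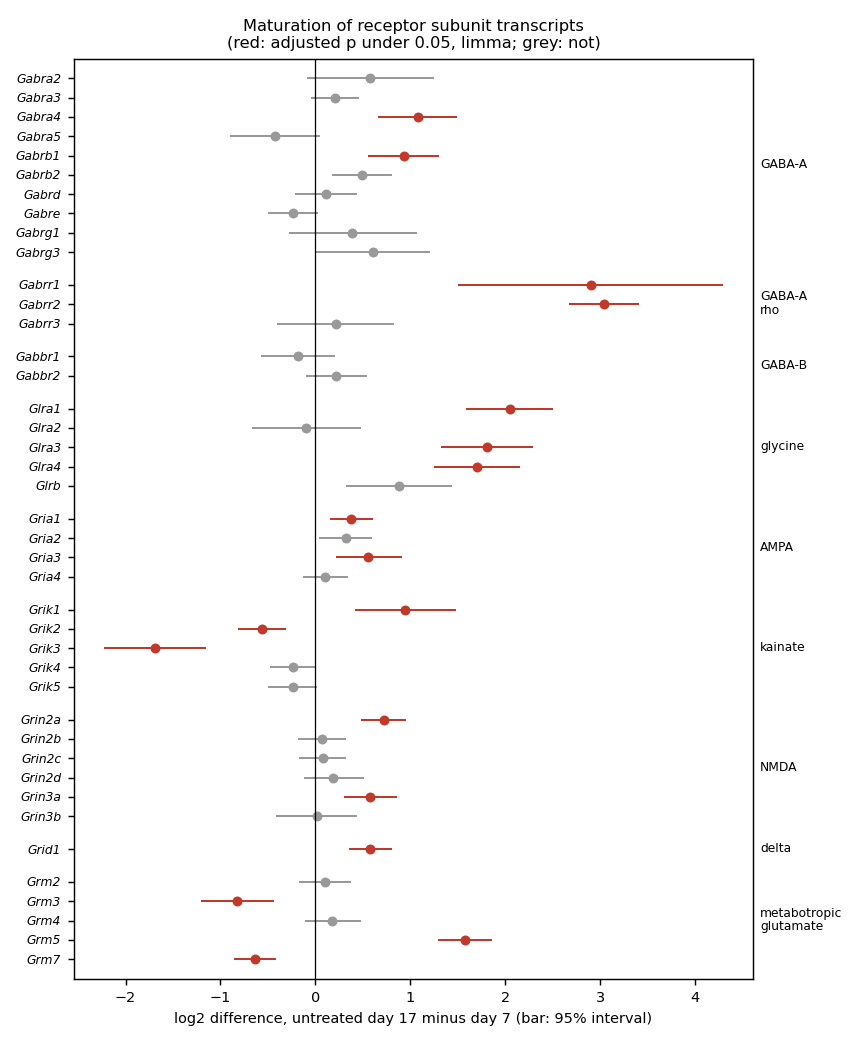
Log2 difference of each tested receptor subunit transcript, untreated day 17 minus untreated day 7, with its 95% interval from limma (horizontal bars, 2 arrays per group). Red points passed an adjusted p of 0.05: 14 lie right of 0, led by Gabrr2 and Gabrr1, and 4 lie left of it, led by Grik3.

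The rho subunits form the slow GABA-C type receptor known at bipolar cell terminals. Gabrr2 was at 9.67 and 9.53 log2 on the day 17 arrays, against 6.66 and 6.45 on the day 7 arrays. The groups lay far apart, and Gabrr2 rose 8.25-fold (log2 difference 3.04 ± 0.16 SE, limma adjusted p = 8.34e-05). Gabrr1 was at 10.26 and 9.98 at day 17, against 8.37 and 6.08 at day 7. It rose 7.46-fold (2.90 ± 0.60, adjusted p = 0.0208), but the day 7 arrays differed by 2.29 between themselves, the widest gap of any member. Leaving out the first day 7 array gave 4.04, leaving out the second gave 1.75, and the call was lost without the first (adjusted p = 0.0982) or the second (0.0612) day 17 array. Gabrr3, the third rho gene, was at 9.12 and 8.72 at day 17, against 9.10 and 8.31 at day 7. Its groups overlapped (0.22 ± 0.26, adjusted p = 0.718).

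Gabrr2 and Gabrr1 are neighbours on chromosome 4 with no protein-coding gene between them, and their annotated starts lie 69444 bases apart on the same strand. The 300 bases around each start (250 before and 50 after) are shown because these neighbours had the largest rises of all members. They are from RefSeq, build GRCm38.p6, plus strand, at chr4:33062862-33063161 for Gabrr2 and chr4:33132306-33132605 for Gabrr1. Capitals mark matches to 2 motifs searched on both strands: GGGCGG or CCGCCC, the GC box, and TAATCC or GGATTA, the core bound by the photoreceptor and bipolar cell homeodomain factors CRX and OTX2.
Gabrr2: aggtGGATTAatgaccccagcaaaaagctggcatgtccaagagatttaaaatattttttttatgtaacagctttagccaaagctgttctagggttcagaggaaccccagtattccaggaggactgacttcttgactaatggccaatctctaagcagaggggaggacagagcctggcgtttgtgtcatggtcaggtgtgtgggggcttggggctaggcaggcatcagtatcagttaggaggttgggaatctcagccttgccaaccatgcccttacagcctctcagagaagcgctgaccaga
Gabrr1: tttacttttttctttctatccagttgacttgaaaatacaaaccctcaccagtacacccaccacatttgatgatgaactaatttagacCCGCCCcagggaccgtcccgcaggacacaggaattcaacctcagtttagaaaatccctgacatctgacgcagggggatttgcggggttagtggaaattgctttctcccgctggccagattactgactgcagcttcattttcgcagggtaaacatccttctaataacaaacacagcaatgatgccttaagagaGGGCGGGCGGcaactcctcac
The Gabrr2 window held GGATTA, beginning 246 bases before the start, and no GC box. The Gabrr1 window held CCGCCC, beginning 163 bases before the start, and overlapping copies of GGGCGG downstream of it, and no TAATCC or GGATTA. Among all 32851 windows in the table, 35.7% held the GC box and 7.06% the homeodomain core. Of 30 tested members with a window, 18 held the GC box, and Gabra2 and Gabrr2 held the homeodomain core. These members had 35 windows and were counted by gene, a match in any window sufficing. The shares above count single windows, so the 2 measures differ. A match is a run of letters and not a shown binding site.

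Glycine receptor alpha subunits carry the glycine binding site and set the kinetics of the channel. Glra1, the subunit of fast glycine receptors, was at 8.37 and 8.13 at day 17, against 6.52 and 5.89 at day 7. The groups did not overlap, and it rose 4.13-fold (2.05 ± 0.19, adjusted p = 0.000887). Glra3 was at 8.36 and 8.25 at day 17, against 6.84 and 6.15 at day 7, and rose 3.51-fold (1.81 ± 0.20, adjusted p = 0.0018). Glra4 was at 6.12 and 6.65 at day 17, against 4.57 and 4.79 at day 7. It passed as well (1.70 ± 0.19, adjusted p = 0.0018), and no fold is given because both day 7 values were under the negative control median. Glra2, the alpha subunit known to prevail in the immature nervous system, was at 8.79 and 8.15 at day 17, against 8.85 and 8.28 at day 7. Its groups overlapped, with a difference of -0.10 ± 0.24 and a 95% interval of -0.66 to 0.47. Glrb, the beta subunit that ties the receptor to the scaffold gephyrin, was at 8.88 and 8.48 at day 17, against 8.11 and 7.49 at day 7. The groups did not overlap, but the difference of 0.88 ± 0.24 did not pass (adjusted p = 0.0554).

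**Figure D2:**
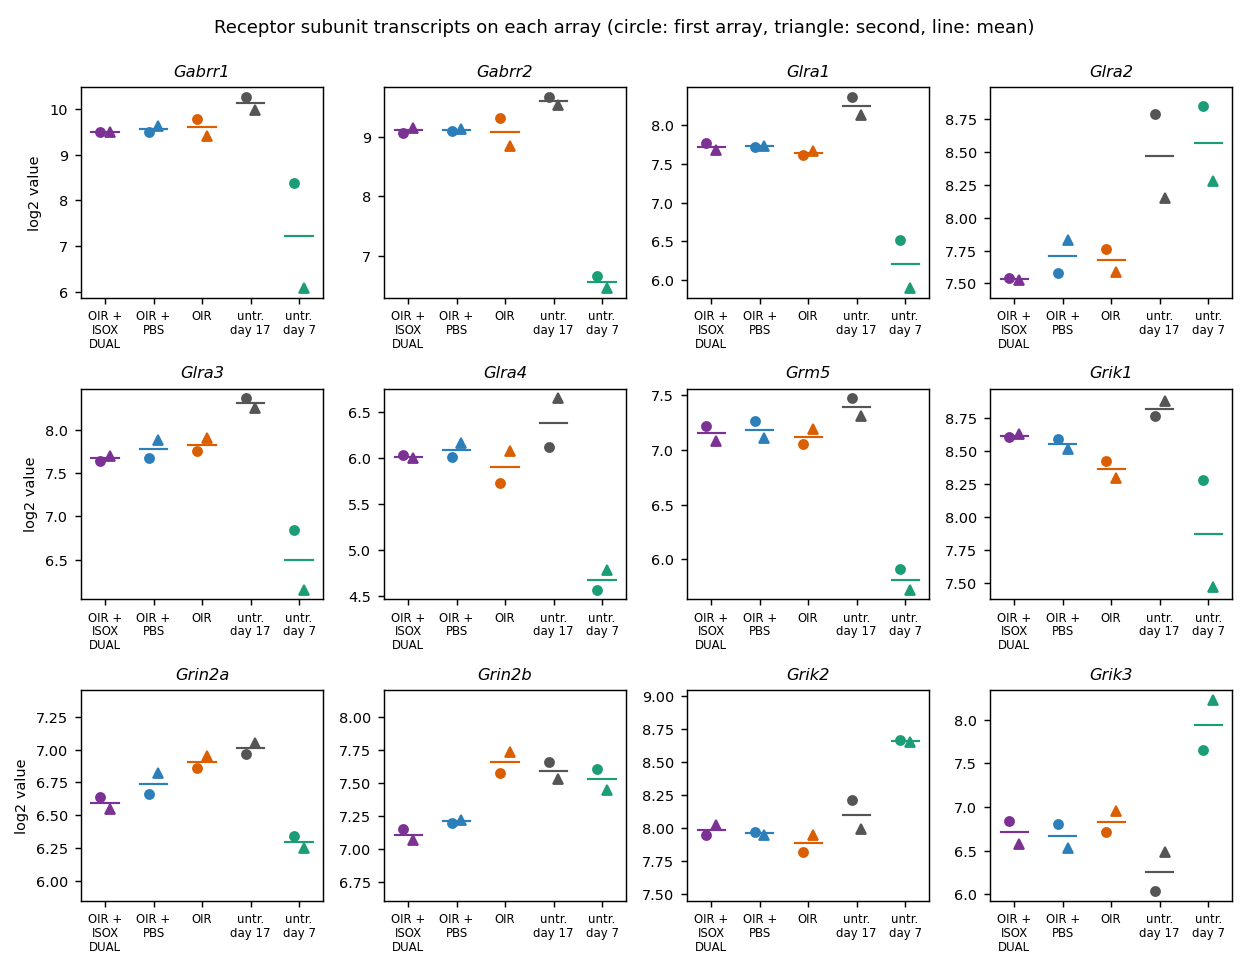
Log2 level of 12 receptor subunit transcripts on each of the 10 arrays (circle, first array; triangle, second array; line, group mean), with the vertical scale set per gene. Gabrr1, Gabrr2, Glra1, Glra3, Glra4 and Grm5 are lowest on the day 7 arrays, Grik3 and Grik2 are highest there, and the day 7 circle and triangle of Gabrr1 lie far apart.

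Among the other GABA-A subunits, those of the chromosome 5 gene cluster passed in part. Gabra4, an alpha subunit known from receptors outside synapses in the brain, was at 7.34 and 7.04 at day 17, against 6.28 and 5.94 at day 7, and rose 2.11-fold (1.08 ± 0.17, adjusted p = 0.00788). Its neighbour Gabrb1, a beta subunit, was at 7.31 and 7.06 at day 17, against 6.44 and 6.07 at day 7, and rose (0.93 ± 0.16, adjusted p = 0.00875). Day 17 arrays of both genes were above both day 7 arrays. The day 7 values of both were near the negative control median, and that of Gabra4 was below it on the second day 7 array. Gabra2, from the same cluster, was at 8.54 and 7.74 at day 17, against 7.86 and 7.27 at day 7, with overlapping groups (0.58 ± 0.28, adjusted p = 0.282). Gabrb2, on chromosome 11, was at 8.43 and 8.60 at day 17, against 8.16 and 7.88 at day 7, and its difference of 0.49 ± 0.13 did not pass (adjusted p = 0.0516). Gabra3 was at 8.29 and 8.22 at day 17, against 8.01 and 8.09 at day 7 (0.21 ± 0.10, adjusted p = 0.290), so its groups were close but did not overlap. Gabra5 had the opposite sign, at 6.18 and 5.82 at day 17, against 6.74 and 6.12 at day 7 (-0.43 ± 0.20, adjusted p = 0.260), with overlapping groups. Of the 10 tested members of this family, 2 rose, where 5.26% of all genes did, and none fell, where 5.29% did. The differences ran from -0.43 to 1.08. Neither of the GABA-B subunits passed (Gabbr1 -0.18 ± 0.16, adjusted p = 0.612; Gabbr2 0.22 ± 0.13, adjusted p = 0.402).

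The kainate receptor subunits moved in both directions. Grik3 was at 6.03 and 6.48 at day 17, against 7.66 and 8.23 at day 7, and was 3.23-fold lower at day 17 (-1.69 ± 0.23, adjusted p = 0.00384). Grik2 was at 8.21 and 7.99 at day 17, against 8.67 and 8.65 at day 7, and fell (-0.56 ± 0.10, adjusted p = 0.0131). Both genes had all day 17 values below all day 7 values. The Grik2 call was lost when its 2 clusters were averaged (-0.38, adjusted p = 0.397). The second cluster was named C130030K03Rik in the array annotation and was assigned to Grik2 when symbols were updated. It was at 6.93 and 5.80 at day 17, against 7.00 and 6.16 at day 7, lower than the first. Grik1, the kainate subunit through which many OFF bipolar cells sense glutamate, was at 8.77 and 8.88 at day 17, against 8.28 and 7.47 at day 7. It rose (0.95 ± 0.22, adjusted p = 0.0356), although the difference was 0.54 without the second and 1.35 without the first day 7 array, and leaving out any array of another group ended the call (adjusted p of 0.0552 to 0.111).

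Among NMDA receptor subunits, Grin2a and Grin2b are known to change places during maturation of many brain circuits, Grin2b being the juvenile form. Grin2a was at 6.97 and 7.05 at day 17, against 6.34 and 6.25 at day 7, and rose (0.72 ± 0.10, adjusted p = 0.00384). Grin2b was at 7.66 and 7.53 at day 17, against 7.61 and 7.45 at day 7. Its groups overlapped, and the 95% interval of its difference was -0.17 to 0.31. Grin3a, a subunit that lowers calcium entry, was at 6.36 and 6.21 at day 17, against 5.75 and 5.66 at day 7, where both arrays were below the negative control median, and passed (0.58 ± 0.12, adjusted p = 0.0182). This call was lost without the first day 17 array (adjusted p = 0.0889) or the second day 7 array (0.0829).

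The AMPA receptor subunits, which carry most fast excitation, differed by less. Gria3 was at 9.02 and 8.67 at day 17, against 8.43 and 8.13 at day 7 (0.56 ± 0.14, adjusted p = 0.0466), and Gria1 was at 8.47 and 8.35, against 8.12 and 7.94 (0.38 ± 0.09, adjusted p = 0.0437). Both rose by a narrow margin, and both calls were lost when either ISOX DUAL, PBS or uninjected OIR array was left out of the fit (adjusted p of 0.0712 to 0.099). Gria2, which makes AMPA receptors impermeable to calcium, was at 9.21 and 9.12 at day 17, against 9.01 and 8.68 at day 7 (0.32 ± 0.12, adjusted p = 0.138). Gria4 was at 9.68 and 9.65 at day 17, against 9.64 and 9.48 at day 7 (0.10 ± 0.10, adjusted p = 0.615). For these 4 genes both day 17 values were above both day 7 values.

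Metabotropic receptors and the delta receptor also moved. Grm5, which raises calcium inside the cell through Gq, was at 7.47 and 7.31 at day 17, against 5.91 and 5.72 at day 7. It passed (1.58 ± 0.12, adjusted p = 0.00039), and no fold is given because both day 7 arrays were below the negative control median. Grm3 and Grm7 lower cyclic AMP through Gi, Grm7 mainly at release sites. Grm7 was at 7.70 and 7.57 at day 17, against 8.34 and 8.21 at day 7, and fell (-0.64 ± 0.09, adjusted p = 0.00479). Grm3 was at 6.21 and 6.59 at day 17, against 7.30 and 7.14 at day 7, and fell (-0.82 ± 0.16, adjusted p = 0.0164), a call lost without the first day 17 array (adjusted p = 0.0733) or the first day 7 array (0.0718). Grid1, a glutamate receptor relative that links synapses through cerebellins, was at 7.35 and 7.28 at day 17, against 6.79 and 6.66 at day 7, and rose (0.58 ± 0.09, adjusted p = 0.00769).

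Genes that make, move or anchor the same transmitters and receptors were read from 3 lists. Of all genes, 5.26% rose past the threshold and 5.29% fell. Of 22 tested genes for transmitter synthesis and transport, 6 rose, 3 fell, and the median difference was 0.14. The glycine transporter Slc6a5 (0.90 ± 0.09, adjusted p = 0.001) and the vesicular glutamate transporter Slc17a8 (1.09 ± 0.15, adjusted p = 0.00365) rose, and Shmt2, an enzyme that interconverts serine and glycine, fell (-1.01 ± 0.12, adjusted p = 0.00251). Of 34 glutamate receptor auxiliary and scaffold genes, 8 rose, none fell, and the median was 0.15. Among them were Shisa9, an AMPA receptor auxiliary subunit (0.76 ± 0.08, adjusted p = 0.00154), and Frrs1l, an AMPA receptor assembly factor (1.04 ± 0.16, adjusted p = 0.00727). Of 19 inhibitory receptor scaffold, assembly and chloride transporter genes, 4 rose and 1 fell, with a median of 0.09. Slitrk3, an adhesion protein of inhibitory synapses, rose (0.79 ± 0.12, adjusted p = 0.00512), and Trak2, a transport adaptor, fell (-1.03 ± 0.16, adjusted p = 0.00712).

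Markers of cell types that carry these receptors were also compared between the ages, where 10.6% of all genes passed. Of 6 bipolar cell markers 4 rose and 1 fell, and their summed linear signal was 4109 and 4119 at day 17, against 2838 and 2408 at day 7. Of 4 rod markers 3 rose, with sums of 16317 and 17126 at day 17, against 5272 and 3246 at day 7. Of 10 ganglion cell markers 1 rose, with sums of 4510 and 4337 at day 17, against 3289 and 2032 at day 7, and of 8 amacrine cell markers 1 rose and 1 fell, with sums of 3524 and 3480 at day 17, against 3603 and 2965 at day 7. The ganglion cell count, 1 of 10, was near the share of all genes. None of the markers in these lists was below the negative control median on all arrays. The part of these cell types in the receptor differences was not tested.

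Uninjected OIR retina was then compared with untreated retina of the same day. The same 2 untreated day 17 arrays served in the comparison of ages. A rise with age and a lower value in OIR are therefore not independent. No member passed the threshold, where 0.495% of all genes did. Of the 41 members 78.0% had negative differences, where 60.0% of all genes did, and the differences were larger for the inhibitory receptors. The median was -0.48 over the 20 GABA and glycine receptor subunits, with 18 negative (90.0%). It was -0.07 over the 21 glutamate receptor subunits, with 14 negative (66.7%, near the share of all genes), beside -0.04 over all genes. Both OIR arrays lay below both untreated arrays for 24 of 41 members (58.5%), where 19.0% of all genes did so, and above them for 2 members, Grik3 and Grik4, where 9.44% of all genes did so. At an unadjusted p under 0.05, 14 members were lower (34.1%, where 2.69% of all genes were) and 1 was higher (3.41% of all genes). Without any 1 of these 4 arrays the members' median stayed between -0.27 and -0.18.

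The smallest p-values belonged to the neighbours Gabra4 and Gabrb1. Gabra4 was at 6.41 and 6.17 on the OIR arrays, against 7.34 and 7.04 on the untreated arrays. Gabrb1 was at 6.43 and 6.39 in OIR, against 7.31 and 7.06 in untreated retina. Neither gene's groups overlapped, with differences of -0.90 ± 0.17 (adjusted p = 0.113) and -0.77 ± 0.16 (adjusted p = 0.125). The OIR values were close to the day 7 levels of 6.28 and 5.94 for Gabra4 and 6.44 and 6.07 for Gabrb1. Both sets were also near the negative control median (5.83 to 6.11), where low levels are hard to tell apart. Neither gene exceeded the 95th percentile of the negative controls on any array. Gabrb2 followed, at 7.97 and 8.11 in OIR, against 8.43 and 8.60 in untreated retina (-0.47 ± 0.13, adjusted p = 0.364). The next gene of the cluster, Gabra2, was at 7.21 and 7.22 in OIR, against 8.54 and 7.74 in untreated retina (-0.93 ± 0.28, adjusted p = 0.472). Its untreated arrays differed by 0.80, the widest gap of any member in that group. A second cluster of Gabra2 was at 7.36 and 6.32 in OIR, against 8.29 and 6.82 in untreated retina, with overlapping groups. Gabrg1, at the end of the cluster, was at 6.01 and 5.57 in OIR, against 6.41 and 5.90 in untreated retina, with overlapping groups (-0.37 ± 0.29).

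Gabra4 and Gabrb1 stand head to head on chromosome 5, on opposite strands, with annotated starts 387 bases apart, so that their 5′ ends overlap. Gabrb1 has 2 annotated start windows in the table, and the distance and the sequence shown refer to the first. Their start windows are shown because these genes had the smallest p-values in OIR and both rose between the ages. Both comparisons use the same untreated day 17 arrays and are not independent. The sequences are from RefSeq, build GRCm38.p6, each read 5′ to 3′ on its own gene's strand, at chr5:71658259-71658558 on the minus strand for Gabra4 and chr5:71657671-71657970 on the plus strand for Gabrb1. Capitals mark the same motifs as above.
Gabra4: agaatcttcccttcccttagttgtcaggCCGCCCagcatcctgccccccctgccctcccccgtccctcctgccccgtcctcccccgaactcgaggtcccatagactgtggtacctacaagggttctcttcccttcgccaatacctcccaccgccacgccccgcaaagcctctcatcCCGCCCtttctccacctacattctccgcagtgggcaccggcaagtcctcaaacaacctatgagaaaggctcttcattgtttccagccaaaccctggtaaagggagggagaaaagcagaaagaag
Gabrb1: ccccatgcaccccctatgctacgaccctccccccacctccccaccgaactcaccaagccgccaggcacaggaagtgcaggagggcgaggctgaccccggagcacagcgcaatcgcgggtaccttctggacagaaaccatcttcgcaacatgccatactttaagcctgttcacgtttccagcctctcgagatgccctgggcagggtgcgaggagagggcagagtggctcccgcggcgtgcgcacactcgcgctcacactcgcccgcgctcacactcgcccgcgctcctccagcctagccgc
The Gabra4 window held CCGCCC at 222 and 74 bases before the start, and the Gabrb1 window held neither motif. Both windows were richer in G and C (58.7% and 66.0%) than the windows of Gabrr2 (49.3%) and Gabrr1 (47.3%). The median was 52.7% over all windows and 59.7% over the windows of tested members.

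**Figure D3:**
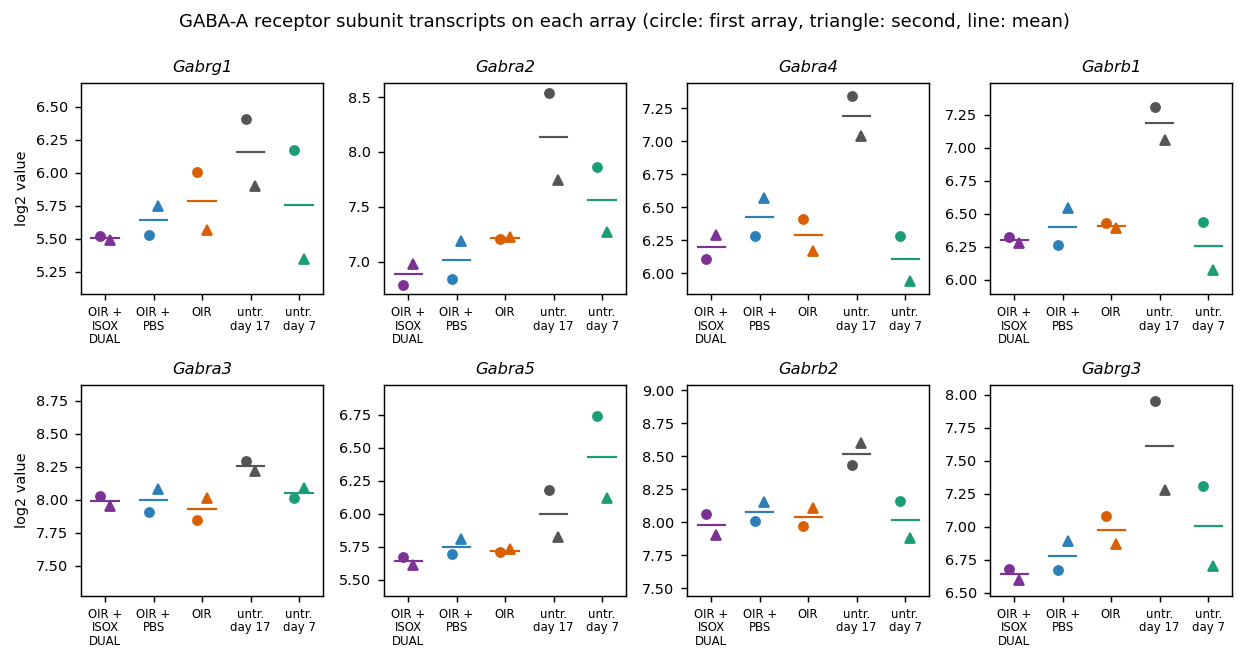
Log2 level of 8 GABA-A receptor subunit transcripts on each array (circle, first array; triangle, second array; line, group mean), with the vertical scale set per gene. The top row is the chromosome 5 cluster, in which every OIR value of Gabra4 and Gabrb1 lies below both untreated day 17 values; adjusted p-values for OIR, PBS and ISOX DUAL against untreated retina were above 0.05.

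All 5 glycine receptor subunits had negative differences in OIR, from -0.80 to -0.36. Glra2 was at 7.76 and 7.59 in OIR, against 8.79 and 8.15 in untreated retina (-0.80 ± 0.24, adjusted p = 0.475). Glra1 was at 7.62 and 7.67 in OIR, against 8.37 and 8.13 in untreated retina (-0.60 ± 0.19, adjusted p = 0.508). For both genes each OIR array was below each untreated array, as it was for Glra3 and Glra4, while Glrb overlapped (8.54 and 8.11 in OIR, against 8.88 and 8.48 in untreated retina). The rho subunits differed by -0.56 to -0.52 without overlap. Gabrr2 was at 9.31 and 8.85 in OIR, against 9.67 and 9.53 in untreated retina (-0.52 ± 0.16, adjusted p = 0.445). Gabrr1 was at 9.78 and 9.41, against 10.26 and 9.98 (-0.53 ± 0.60, adjusted p = 0.999). Its wider standard error is from the shared estimate of the spread, which includes the gap of 2.29 between its day 7 arrays.

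Among glutamate receptor subunits, Grik3 had the largest positive difference. It was at 6.71 and 6.95 in OIR, against 6.03 and 6.48 in untreated retina (0.58 ± 0.23, adjusted p = 0.744), and its day 7 values were 7.66 and 8.23. Leaving out the first untreated array gave 0.35, and leaving out the second gave 0.80. Grik4 (0.15 ± 0.10, adjusted p = 0.999) and, among GABA-A subunits, Gabre (0.11 ± 0.11, adjusted p = 0.999) came next by p, and all Gabre values lay below the negative control median. Gria3 was at 8.45 and 8.38 in OIR, against 9.02 and 8.67 in untreated retina (-0.43 ± 0.14, adjusted p = 0.577), and Grik1 at 8.43 and 8.30, against 8.77 and 8.88 (-0.46 ± 0.22, adjusted p = 0.928), neither with overlap. Gria1, Gria2, Grin2a and Grin2b lay within 0.10 of untreated retina, with the 95% interval of Gria1 from -0.21 to 0.23 and that of Grin2b from -0.17 to 0.31.

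In OIR no tested gene of the 3 pathway lists passed. The medians were -0.04 over transmitter synthesis and transport and 0.04 over inhibitory scaffolds and chloride transporters. The median was -0.14 over glutamate receptor auxiliary and scaffold genes, of which 27 of 34 were negative (79.4%, where 60.0% of all genes were). The smallest p was that of Olfm2, an AMPA receptor associated protein, which was 0.67 ± 0.11 higher (adjusted p = 0.056). Cell type markers also differed, and 1 passed the threshold: Sox9, a transcription factor of Müller glia, rose (0.91 ± 0.11, adjusted p = 0.0234), while the median over 5 Müller glia markers was -0.32. Pigment epithelium markers had the lowest median, -0.72 over 6 genes, all 6 negative, with summed signals of 1168 and 565 in OIR, against 1653 and 1089 in untreated retina; Best1 was below the negative control median on all arrays. The median was 0.31 over 6 endothelial markers, with sums of 1677 and 1657 in OIR, against 1411 and 1402 in untreated retina. It was -0.31 over 10 ganglion cell markers, with summed signals of 4032 and 2781 in OIR, against 4510 and 4337 in untreated retina. It was -0.14 over 8 amacrine cell markers, with sums of 3415 and 2829 in OIR, against 3524 and 3480 in untreated retina, and -0.21 over 6 bipolar cell markers, with sums of 3666 and 3423 in OIR, against 4109 and 4119 in untreated retina. No marker of these lists other than Sox9 passed the threshold, and their part in the receptor differences was not tested.

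The injected OIR groups were set against the same untreated day 17 arrays, so these comparisons share them with the one above. With PBS, 0 members passed and 0.0% of all genes did. The median over the members was -0.26, beside -0.03 over all genes, and 28 members (68.3%) had both PBS arrays below both untreated arrays, where 28.7% of all genes did. With ISOX DUAL, 0 members passed, where 0.0172% of all genes did. The median was -0.31, beside -0.01 over all genes, and 28 members lay lower without overlap, where 27.6% of all genes did. At an unadjusted p under 0.05, 17 members were lower with PBS and 18 with ISOX DUAL, where 4.71% and 4.5% of all genes were. Without the second ISOX DUAL array, the one with the highest mean lens gene level, the median was -0.28. That lens mean was still 6.74 on the first ISOX DUAL array, against 5.94 and 6.25 on the untreated arrays.

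Ganglion cell, amacrine cell and pigment epithelium markers had negative medians in the same comparisons. Of all genes, 53.0% had negative differences with ISOX DUAL and 55.5% with PBS. The median over 4 rod markers was 0.03 with ISOX DUAL and -0.05 with PBS. It was -0.19 and -0.21 over 6 bipolar cell markers, and -0.14 and -0.41 over 5 horizontal cell markers. Over 10 ganglion cell markers the median was -0.90 with ISOX DUAL and -0.63 with PBS, all 10 negative in each, with summed signals of 2062 and 1541 with ISOX DUAL and 1716 and 3100 with PBS, against 4510 and 4337 in untreated retina. Over 8 amacrine cell markers it was -0.21 with ISOX DUAL and -0.24 with PBS, all 8 negative in each, with sums of 2536 and 2419 with ISOX DUAL and 2307 and 2854 with PBS, against 3524 and 3480 in untreated retina. Over 6 pigment epithelium markers it was -0.74 with ISOX DUAL and -0.67 with PBS, with sums of 562 and 928 with ISOX DUAL and 674 and 829 with PBS, against 1653 and 1089 in untreated retina. No marker of these lists passed the threshold in either comparison, and their part in the receptor differences was not tested.

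Gabra4 was at 6.11 and 6.29 with ISOX DUAL and 6.28 and 6.57 with PBS, against 7.34 and 7.04 in untreated retina. The differences were -0.99 ± 0.17 (adjusted p = 0.195) with ISOX DUAL and -0.77 ± 0.17 (adjusted p = 0.519) with PBS, and neither injected group overlapped the untreated arrays. Gabrb1 was at 6.32 and 6.28 with ISOX DUAL and 6.26 and 6.54 with PBS, against 7.31 and 7.06 in untreated retina (-0.89 ± 0.16, adjusted p = 0.195, and -0.79 ± 0.16, adjusted p = 0.477). Gabra2 was at 6.79 and 6.98 with ISOX DUAL and 6.84 and 7.19 with PBS, against 8.54 and 7.74 in untreated retina. Its differences of -1.26 with ISOX DUAL and -1.13 ± 0.28 with PBS (adjusted p = 0.535) were the largest of any member. With PBS, leaving out the first untreated array gave -0.73 and leaving out the second gave -1.53. Averaging the 2 Gabra2 clusters gave -1.25 ± 0.43 with PBS. Grin3a was at 5.69 and 5.66 with ISOX DUAL, both below the negative control median, and 5.75 and 6.02 with PBS, against 6.36 and 6.21 in untreated retina (ISOX DUAL -0.61 ± 0.12, adjusted p = 0.227). On the positive side, Grik3 was at 6.84 and 6.58 with ISOX DUAL and 6.81 and 6.53 with PBS, against 6.03 and 6.48 in untreated retina (0.46 ± 0.23, adjusted p = 0.641, and 0.42 ± 0.23, adjusted p = 0.567), above them in both groups. Grm3 (ISOX DUAL 0.23, PBS 0.16), Gabrd (ISOX DUAL 0.12) and Gabbr1 (PBS 0.13) were next, with adjusted p-values of 0.689 to 0.794, and of these only Grm3 with ISOX DUAL did not overlap the untreated arrays.

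**Figure D4:**
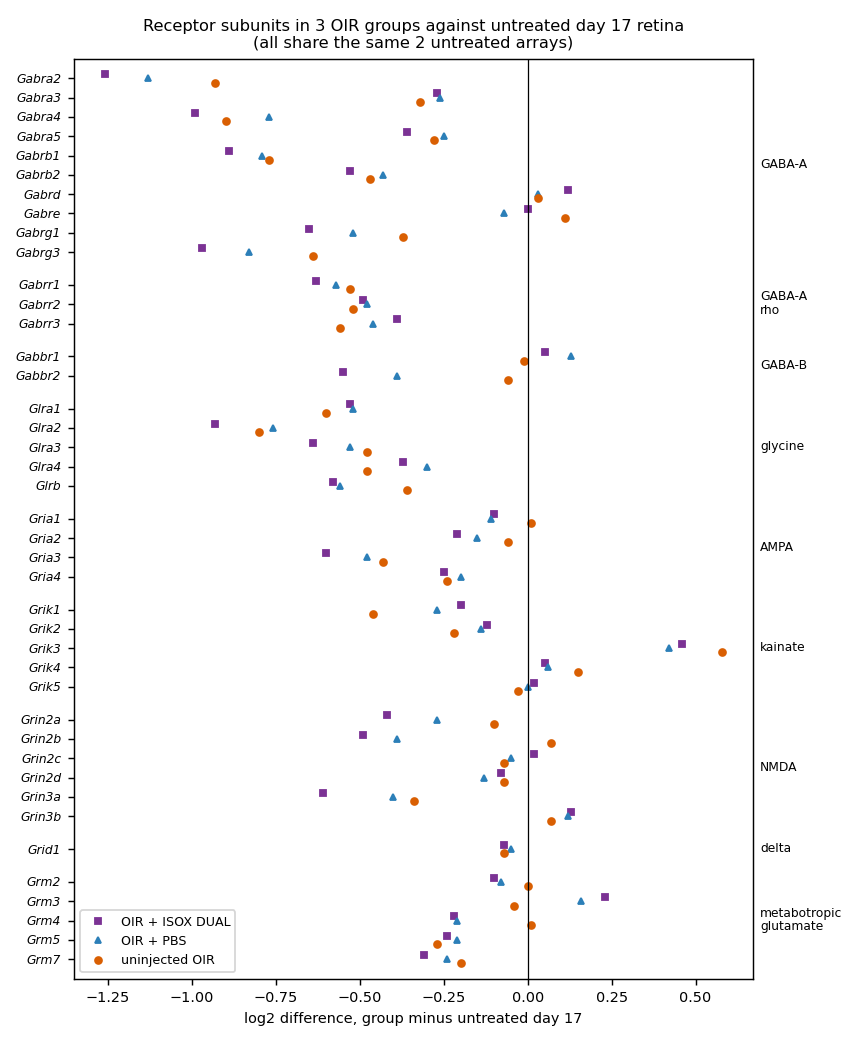
Log2 difference of each tested receptor subunit transcript from untreated day 17 retina in the ISOX DUAL (squares), PBS (triangles) and uninjected OIR (circles) groups, means of 2 arrays. All 3 groups are set against the same 2 untreated arrays; most GABA-A, rho and glycine receptor points lie left of 0, Grik3 lies right of it, and no point passed an adjusted p of 0.05.

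The injected groups were also set against uninjected OIR. With PBS, 0 members passed and 0.0% of all genes did, and the median was -0.01. Both PBS arrays lay below both OIR arrays for 11 members (26.8%), where 15.3% of all genes did. With ISOX DUAL, 0 members passed, where 0.0043% of all genes did. The median was -0.10, and 18 members (43.9%) lay lower without overlap, where 15.4% of all genes did. The median was -0.05 without the second ISOX DUAL array and -0.06 without the first uninjected OIR array. The PBS median was 0.03 when the first PBS array was left out and -0.05 when the second was. At an unadjusted p under 0.05, 2 members were lower with PBS and 4 with ISOX DUAL, where 2.53% and 2.7% of all genes were.

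The NMDA receptor subunit Grin2b had the smallest p in both. It was at 7.15 and 7.07 with ISOX DUAL and 7.20 and 7.22 with PBS, against 7.58 and 7.74 in uninjected OIR. Neither injected group overlapped the uninjected arrays (-0.55 ± 0.10, adjusted p = 0.394 with ISOX DUAL, and -0.45 ± 0.10, adjusted p = 0.517 with PBS), and the untreated day 17 values were 7.66 and 7.53. Gabbr2, the GABA-B subunit that couples to the G protein, was at 8.71 and 8.37 with ISOX DUAL and 8.57 and 8.80 with PBS, against 9.00 and 9.04 in uninjected OIR. It lay lower in both (-0.48 ± 0.13, adjusted p = 0.799, and -0.33 ± 0.13, adjusted p = 0.966), again without overlap. Grin2a was at 6.64 and 6.55 with ISOX DUAL, against 6.86 and 6.95 in uninjected OIR (-0.31 ± 0.10, adjusted p = 0.952). Grm4 was at 6.36 and 6.57 with PBS, against 6.63 and 6.74 in uninjected OIR (-0.22 ± 0.12, adjusted p = 0.966). The positive differences of smallest p were Grm3, Grik1 and Grik2 with ISOX DUAL (0.27, 0.26 and 0.10) and Grm3, Glra4 and Gabbr1 with PBS (0.19, 0.18 and 0.14), with adjusted p-values of 0.966 or 0.991.

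Ganglion cells are known to carry Grin2b and Grin2a. The median over 10 ganglion cell markers was -0.78 for ISOX DUAL and -0.41 for PBS against uninjected OIR, all 10 negative in each, with 0 past the threshold. Their summed signal was 2062 and 1541 with ISOX DUAL and 1716 and 3100 with PBS, against 4032 and 2781 in uninjected OIR, so the PBS and uninjected sums overlapped. None of the 10 was below the negative control median on all arrays. Of all genes, 42.6% had negative differences with ISOX DUAL and 47.5% with PBS. Other marker lists differed too. With ISOX DUAL and with PBS, the medians were -0.12 and -0.18 over 8 amacrine cell markers and -0.13 and -0.13 over 5 horizontal cell markers. They were -0.14 and -0.08 over 6 pigment epithelium markers, 0.16 and 0.11 over 4 rod markers and 1.74 and 0.30 over 9 lens genes. The part of any of these lists in the receptor differences was not tested.

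ISOX DUAL was finally compared with PBS; the series looked for genes raised in OIR whose level came back with the inhibitor. No member passed, and 0.0% of all genes did. The differences were small, from -0.22 to 0.09, with a median of -0.03 beside 0.01 over all genes. Of the 41 differences 29 were negative (70.7%), where 43.0% of all genes were. Both ISOX DUAL arrays lay below both PBS arrays for 9 members, where 11.5% of all genes did, and above them for 5, where 16.6% of all genes did. At an unadjusted p under 0.05 there were 0 members, where 1.02% of all genes passed. With 1 of these 4 arrays left out, the median was -0.06 and -0.02 without the first and second ISOX DUAL array and -0.10 and 0.00 without the first and second PBS array, and 19 to 32 of the differences were negative.

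The members of smallest p were Grin3a and Grin2a. Grin3a was at 5.69 and 5.66 with ISOX DUAL, against 5.75 and 6.02 with PBS (-0.21 ± 0.12, 95% interval -0.48 to 0.06). Grin2a was at 6.64 and 6.55 with ISOX DUAL, against 6.66 and 6.82 with PBS (-0.14 ± 0.10, 95% interval -0.37 to 0.08). For both genes the ISOX DUAL arrays were the lower ones by a narrow gap. Gabra4 had the largest difference, -0.22 ± 0.17 (95% interval -0.63 to 0.18), with overlapping groups. Among positive differences, Grin2c (0.07 ± 0.10), Gabrd (0.09 ± 0.14) and Gabre (0.06 ± 0.11) had the smallest p, all with an adjusted p of 1.00. Grik3, the member with the largest positive difference in OIR, was at 6.84 and 6.58 with ISOX DUAL, against 6.81 and 6.53 with PBS, with overlapping groups (0.04 ± 0.23, 95% interval -0.49 to 0.57). For 40 of the 41 members the 95% interval lay within 1 log2 unit of 0 in both directions, a 2-fold difference. The exception was Gabrr1, whose interval ran from -1.45 to 1.33 with the day 7 arrays in the shared estimate of the spread, while its values were 9.49 and 9.49 with ISOX DUAL, against 9.49 and 9.62 with PBS.

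**Figure D5:**
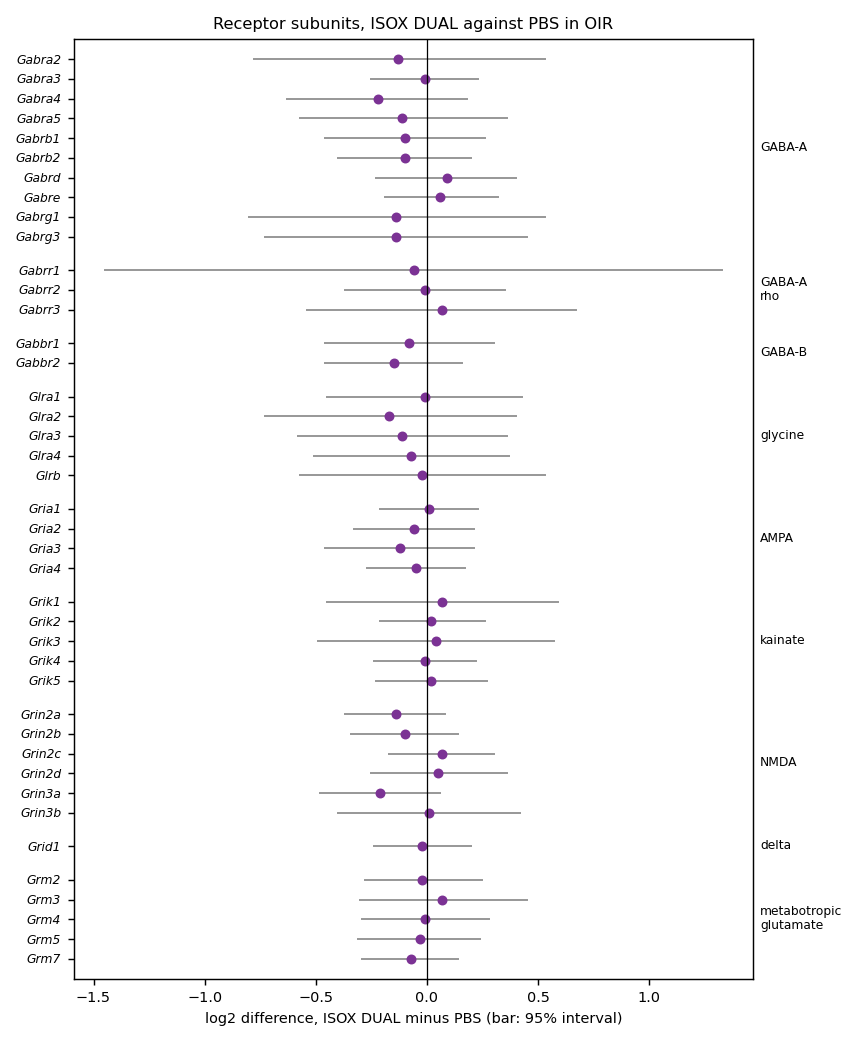
Log2 difference of each tested receptor subunit transcript, ISOX DUAL minus PBS, with its 95% interval from limma (horizontal bars, 2 arrays per group). The points lie between -0.22 and 0.09, every interval includes 0, and the interval of Gabrr1 is the widest.

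Relative to PBS, all 10 ganglion cell markers were lower with ISOX DUAL, where 43.0% of all genes were, with a median of -0.35. None passed the threshold, and the groups overlapped for each of the 10. Their summed signal was 2062 and 1541 with ISOX DUAL, against 1716 and 3100 with PBS. In the same comparison 9 of 9 lens genes were higher, by a median of 1.43. The summed lens signal was 1142 and 7212 with ISOX DUAL, against 809 and 1106 with PBS. The part of either in the receptor differences was not tested.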

How the data were processed

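RNA was extracted with Trizol and labelled with a whole-transcript terminal labelling kit, per the labels' protocols. The authors deposited 1 log2 value per transcript cluster and array, a scale read from the values (0.78 to 13.67). The software, normalization and build are not stated in these sources; no further normalization was done. Of 72688 rows, 6732 were controls. Symbols were updated with RefSeq genes of GRCm38.p6, and the single-symbol cluster of highest mean stood for each gene. Genes above the array's 30th percentile on at least 2 arrays were tested. Limma 3.58.1 in R 4.3.3 (lmFit, eBayes) fitted 5 group means over 10 arrays (5 residual and 2.76 prior degrees of freedom), for 7 comparisons, with Benjamini-Hochberg adjustment over 23255 genes and ± as the standard error. The number of arrays limits precision (median standard error 0.134, median half-width of the 95% interval 0.311). No fold is given where the lower group lay below the negative control median (5.83 to 6.11) on both arrays. The steps were tested on simulated data. Members and gene lists were chosen with earlier results of these data known. Named were a fixed set of subunits, the 15 members of largest difference past the threshold, else the 3 of smallest p in each direction, and up to 4 genes per pathway list; other members were named after their values were seen. Replicate numbers were not used to pair arrays.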

Additional observations from a re-analysis of the deposited data

How the results depend on the processing

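The counts of calls, the members' medians and 54 differences of single members were recomputed under 18 alternatives, 10 of them leaving out 1 array; the marker and pathway lists, the counts without overlap and those at an unadjusted p were not. At day 17 against day 7, 18 members passed. With only the 4 arrays compared the count was 5. That fit leaves fewer residual degrees of freedom and had larger standard errors, such as 0.16 for Gria1 against 0.09 with all arrays. Over all tested genes, the difference between a group's 2 arrays had a standard deviation of 0.40 at day 7 and 0.34 at untreated day 17. That figure was 0.33 in uninjected OIR, 0.22 with PBS and 0.16 with ISOX DUAL, and the main fit shares 1 spread over all groups. The count was 19 after quantile normalization, 12 with array weights and 16 without a filter. It was 18 with the 50th percentile filter and 17 with clusters averaged. It was 12 to 20 with 1 array left out. Gabrr2, Glra1, Glra3, Glra4 and Grm5 passed in all 18, and Gria1 (6), Gria3 (7) and Grik1 (8) in the fewest. The other comparisons called 0 members under each setting (0 to 0 with 1 array left out) except the crossed block described next. With the replicate number as a block the day count was 19 and the others 0. Same-numbered arrays differed alike among uninjected groups (r of 0.583 to 0.809) and between injected groups (0.399) but not between these kinds (-0.406 to -0.0567), and the labels do not say what a number marks. With the numbers crossed in the injected groups, an alternative added after seeing the data, the block called 20 members between the ages, 2 in OIR, 1 with PBS and 3 with ISOX DUAL against untreated retina. Over all genes, counts against untreated retina ranged from 0 to 215 for OIR (115 as reported), 0 to 43 for PBS (0) and 0 to 53 for ISOX DUAL (4), from 345 to 3539 between the ages (2454), and from 0 to 5 for PBS (0) and 0 to 7 for ISOX DUAL (1) against OIR. Signs turned in 4 uncalled values: Grik2 for ISOX DUAL against OIR with clusters averaged (-0.08) and, against untreated retina without its first array, Gabbr1 (-0.06) and Grm3 (-0.04) with PBS and Gabrd (-0.06) with ISOX DUAL, whose highest values with 1 array left out were 0.32, 0.35 and 0.29. The cause was not tested.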
